A study of Mus musculus with 7 samples.

Results

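The genes described here encode the mouse surface antigens whose symbol carries a cluster-of-differentiation number, from Cd2 to Cd320. Members were taken by symbol from the platform's probe annotation: Cd, then 1 to 3 digits, then nothing or a single letter from a to g, with Cd52, Cd53, Cd74, Cd79a and Cd79b left out. Of the 64 such genes on the array (106 probes), 44 had a probe above background on at least 1 array, where above background means a detection p-value under 0.01. The other 20, among them Cd4, Cd5, Cd8a, Cd36, Cd46, Cd48, Cd70, Cd96 and Cd200, were above background on no array and have no level here. Just inside that limit lay Cd300a, at a detection p-value of 0.0075 in LinPos_iPSC, and just outside it Cd209a, at 0.0125 in LinNeg_BM. The 44 measured genes were part of 9263 measured genes in all.

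Gene expression was read with 7 Illumina bead arrays, 1 per RNA sample, and all cells came from OG2 mice, a strain that carries a green fluorescent protein reporter under Pou5f1 regulatory sequence. The only uncultured group was marrow freed of cells with lineage antigens (LinNeg_BM, 1 array), and the 6 pluripotent arrays held ES cells (ESC, 1 array) and induced pluripotent stem cells (iPSCs) of several origins. The iPSC arrays were lines 1.1.2, 7 and 9 from lineage-negative marrow (LinNeg_iPSC, 3 arrays), line 1.1 from lineage-positive marrow (LinPos_iPSC, 1 array) and a culture from embryonic fibroblasts, MEFs (MEF_iPSC, 1 array). The labels give no animal ages, no antibodies used for lineage depletion, no reprogramming vectors and no animal of origin for any line, and enter bone marrow as the tissue of all 7 samples. The p-values therefore rest on the spread between these 3 lines, drawn towards that of all genes, and each lone array was assumed to vary as they do.

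Cluster-of-differentiation numbers were given to cell-surface molecules that groups of monoclonal antibodies recognise, mostly on blood cells, so the shared name marks a method of discovery and not a gene family. The proteins include tetraspanins that organise membrane domains, adhesion molecules, complement regulators, costimulatory ligands and receptors, and lectins and immunoglobulin-type receptors of single blood lineages. In bone marrow, combinations of these antigens are used to sort stem and progenitor cells from maturing blood cells.

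Most of the measured genes belonged to marrow. In LinNeg_BM 39 of the 44 were above background, against 15 to 18 on each of the 6 pluripotent arrays. LinNeg_BM alone held 24 of them (54.5%), whereas 818 of all 9263 measured genes (8.83%) had that pattern. Another 10 of the 44 (22.7%) were above background on all 7 arrays, compared with 62.9% of all measured genes. In LinNeg_BM and some of the pluripotent arrays 5 were above background (Cd3e, Cd6, Cd40, Cd47 and Cd82), and 5 were not above background in LinNeg_BM but were so on at least 1 pluripotent array (Cd80, Cd109, Cd276, Cd300a and Cd320). With bulk RNA, fewer cells of a type and less RNA per cell cannot be told apart.

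**Figure D1:**
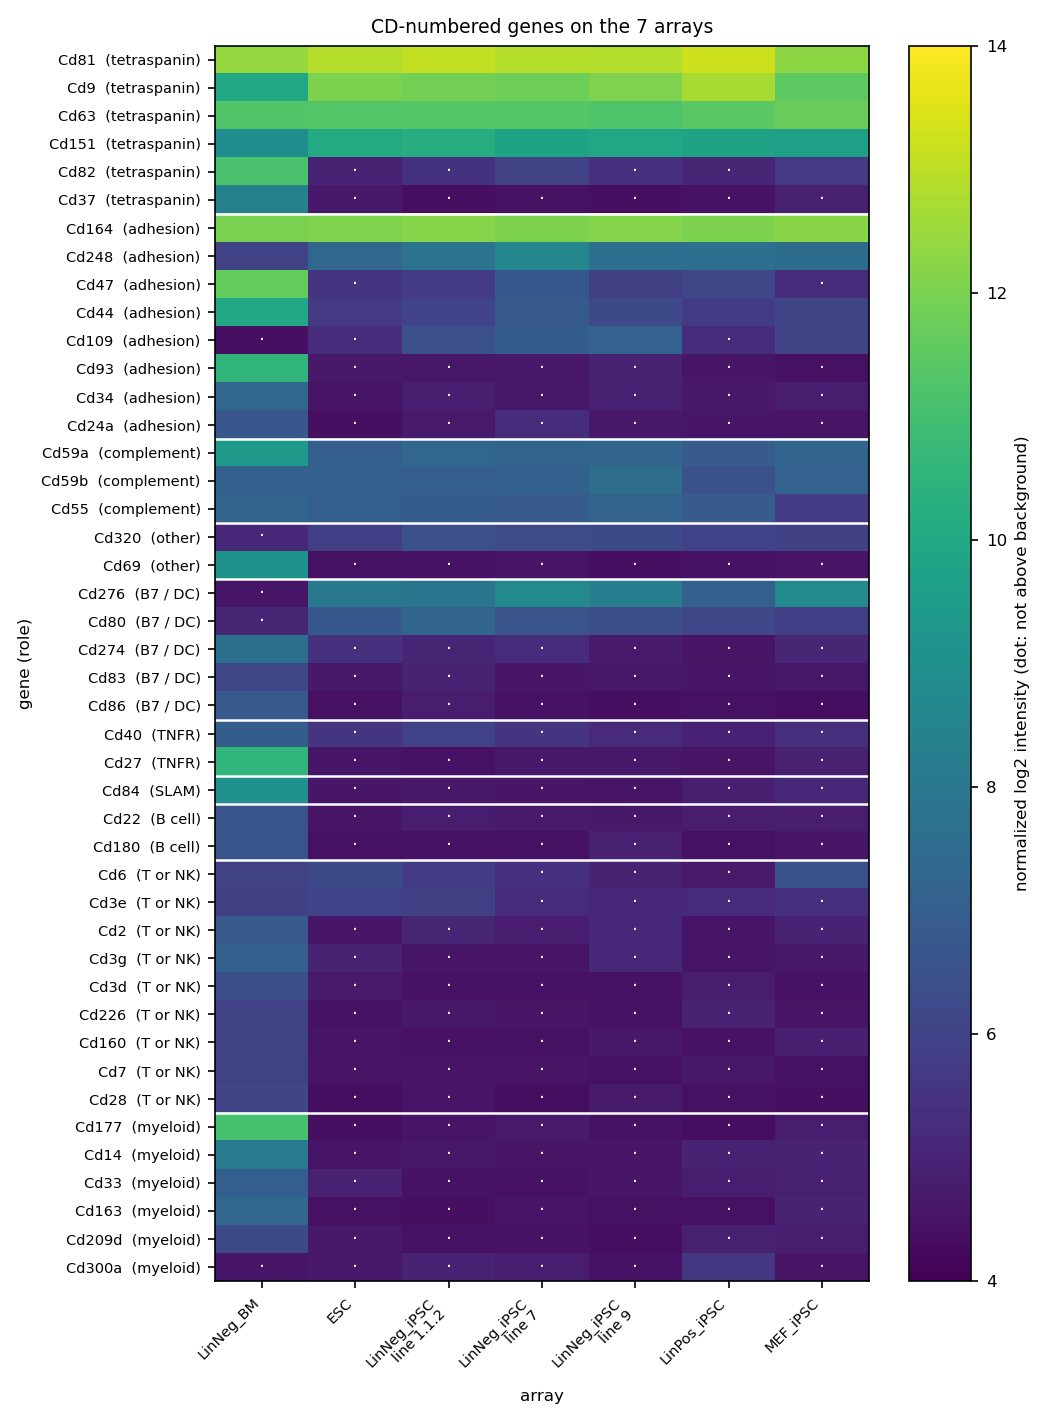
Normalized log2 intensity of the 44 measured CD-numbered genes (rows, with their role) on the 7 arrays (columns). A dot marks a value not above background, and white lines part the roles. Dots fill most of the 6 pluripotent columns from Cd69 downwards, while LinNeg_BM carries 5 dots.

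The labels of the cells were checked against marker lists. Of 8 pluripotency markers none was above background in LinNeg_BM, 7 were in LinPos_iPSC and 8 on each other pluripotent array. Of 10 pan-leukocyte markers all 10 were above background in LinNeg_BM and 4 or 5 on each pluripotent array, and 9 of 9 granulocyte and monocyte markers were in LinNeg_BM against at most 1 elsewhere. Between 7243 and 7605 genes were above background per array, and the SD between the 3 lines had a median of 0.17 on the log2 scale over all genes and of 0.16 over the 44.

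Cd34, Cd27 and Cd33 stand for the pattern of marrow alone. Cd34, a sialomucin used to select hematopoietic progenitors, had a normalized log2 intensity of 7.29 in LinNeg_BM, 4.58 in ESC, 4.84, 4.65 and 4.91 in lines 1.1.2, 7 and 9, 4.70 in LinPos_iPSC and 4.77 in MEF_iPSC. Cd27, a receptor of the tumour necrosis factor family that binds Cd70, was at 10.59 in LinNeg_BM, 4.56 in ESC, 4.48, 4.68 and 4.66 in the 3 lines, 4.53 in LinPos_iPSC and 4.93 in MEF_iPSC. Cd33, a sialic-acid-binding lectin of myeloid cells, was at 6.98 in LinNeg_BM, 4.93 in ESC, 4.48, 4.47 and 4.59 in the 3 lines, 4.76 in LinPos_iPSC and 4.89 in MEF_iPSC. For each of the 3 genes LinNeg_BM was high, and the 6 pluripotent arrays were not above background and lay close together.

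The starts of these 3 genes are shown beside those of Cd276, which was above background on every pluripotent array and not in LinNeg_BM, and of Cd9, above background on all 7 arrays. Each window runs from 250 bases before to 50 bases after the annotated transcription start, in the direction of the gene, from RefSeq on GRCm38.p6. Capitals mark CpG dinucleotides, the sites of DNA methylation in mammals. The windows are Cd34 at chr1:194938571-194938870 (plus strand, 7 CpGs), Cd27 at chr6:125236978-125237277 (minus strand, 7 CpGs), Cd33 at chr7:43533122-43533421 (minus strand, 4 CpGs), Cd276 at chr9:58554984-58555283 (minus strand, 39 CpGs) and Cd9 at chr6:125494711-125495010 (minus strand, 18 CpGs).
Cd34: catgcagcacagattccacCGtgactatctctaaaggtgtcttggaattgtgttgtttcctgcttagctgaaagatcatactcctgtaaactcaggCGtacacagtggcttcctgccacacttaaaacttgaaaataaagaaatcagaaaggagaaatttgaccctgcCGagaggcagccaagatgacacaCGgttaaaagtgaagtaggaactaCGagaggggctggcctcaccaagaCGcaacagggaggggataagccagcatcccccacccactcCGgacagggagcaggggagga
Cd27: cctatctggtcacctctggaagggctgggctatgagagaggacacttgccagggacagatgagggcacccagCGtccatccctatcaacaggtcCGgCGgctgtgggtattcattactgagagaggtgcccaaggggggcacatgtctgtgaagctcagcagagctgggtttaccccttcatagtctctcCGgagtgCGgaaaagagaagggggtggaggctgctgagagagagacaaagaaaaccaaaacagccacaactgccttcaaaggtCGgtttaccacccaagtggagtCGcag
Cd33: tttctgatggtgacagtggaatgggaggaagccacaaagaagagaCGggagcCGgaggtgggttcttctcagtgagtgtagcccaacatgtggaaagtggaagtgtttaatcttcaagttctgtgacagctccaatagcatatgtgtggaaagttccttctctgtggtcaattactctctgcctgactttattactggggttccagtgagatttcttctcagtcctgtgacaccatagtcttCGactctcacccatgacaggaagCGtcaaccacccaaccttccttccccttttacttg
Cd276: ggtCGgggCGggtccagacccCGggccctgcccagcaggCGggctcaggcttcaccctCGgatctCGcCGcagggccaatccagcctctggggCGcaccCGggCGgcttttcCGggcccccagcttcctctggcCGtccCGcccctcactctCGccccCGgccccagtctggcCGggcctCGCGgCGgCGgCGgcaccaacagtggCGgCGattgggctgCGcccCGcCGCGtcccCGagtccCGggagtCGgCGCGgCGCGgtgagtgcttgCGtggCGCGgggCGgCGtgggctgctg
Cd9: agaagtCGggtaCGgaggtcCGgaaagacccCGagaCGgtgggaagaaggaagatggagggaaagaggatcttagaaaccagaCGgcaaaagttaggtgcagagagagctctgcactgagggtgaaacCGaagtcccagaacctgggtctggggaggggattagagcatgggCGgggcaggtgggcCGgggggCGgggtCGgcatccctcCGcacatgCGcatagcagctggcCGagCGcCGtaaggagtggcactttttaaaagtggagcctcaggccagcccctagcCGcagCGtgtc

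The RefSeq promoter table held 30 of the 44 measured genes. The 14 such genes above background in LinNeg_BM alone had 1 to 15 CpGs in the window, with a median of 4. The 9 above background on all 7 arrays had 1 to 36, with a median of 12, and the ranges overlapped: Cd59a and Cd59b had 1 CpG each and Cd164 had 36. Over all measured genes the medians were 7 for LinNeg_BM alone (646 promoters) and 22 for all 7 arrays (4852 promoters), and over 27025 promoters of the table the median was 7. The counts describe sequence only, and methylation was not measured.

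**Figure D2:**
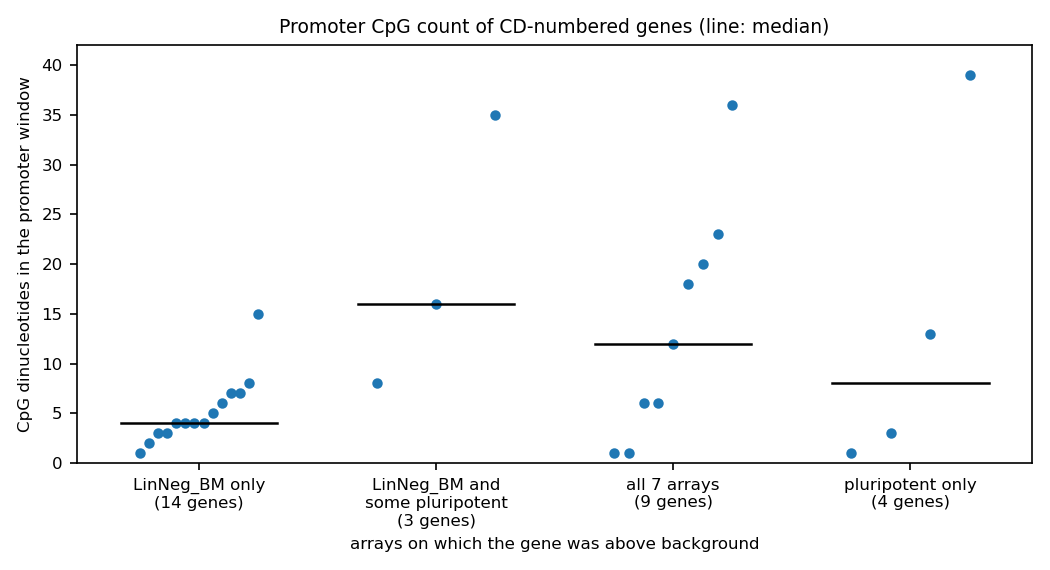
Number of CpG dinucleotides in the promoter window (vertical axis) of the 30 CD-numbered genes in the RefSeq table, grouped by the arrays on which the gene was above background. Points are genes and lines are medians, at 4, 16, 12 and 8 from left to right.

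Letters matching blood transcription factor motifs were counted in the same windows on both strands. The letters AGATAA, of the kind that erythroid zinc-finger factors such as Gata1 bind, were in 10.0% of the 30 windows and in 11.4% of all promoters. The motif GAGGAAG, which factors like PU.1 of the ETS family can bind, was in 26.7% of the 30 and in 13.5% of all. By pattern it was in 21.4% of the 14 marrow-only windows, beside 20.6% of all measured marrow-only genes. It was in 3 of the 4 windows of genes not above background in LinNeg_BM, beside 13.3% of 1441 such windows over all measured genes. With 4 windows that share is imprecise. The core motif of other ETS factors, searched as GGAAGT, was in 26.7% of the 30 and in 24.1% of all, and can share bases with the one before. Cd33, Cd37 and Cd63 held both ETS-type motifs in their windows. A match is a description of letters and says nothing of binding, which was not tested.

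The first comparison set the 3 LinNeg_iPSC lines against LinNeg_BM, the kind of cell they were made from, and asks how far the surface genes of marrow were still detected after reprogramming. Of the 44 genes 37 passed the test (limma, adjusted p under 0.05 over all 9263 genes), where 59.5% of all genes did. Of these, 8 were higher in the lines (Cd9, Cd81, Cd151, Cd80, Cd109, Cd248, Cd276 and Cd320), beside 29.6% of all genes, and 29 were lower, beside 29.9%. The median difference, lines minus LinNeg_BM, was -1.80 for the 44 and 0.02 for all genes. A gene measured through LinNeg_BM alone could hardly do other than fall, and all 24 of that kind did, as did 95.5% of the 818 genes with that pattern over the whole array. The same limit holds for such genes in the counts by role below. Their p-values rest on a spread between 3 lines that were all below background. Among the 10 genes above background on all 7 arrays, 6 passed, 4 of them higher and 2 lower, beside 54.5% of the 5825 such genes. With only genes above background on 3 or more arrays tested, 12 of 18 remaining CD-numbered genes passed, 8 higher and 4 lower, beside 4634 of 7664 over all genes.

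**Figure D3:**
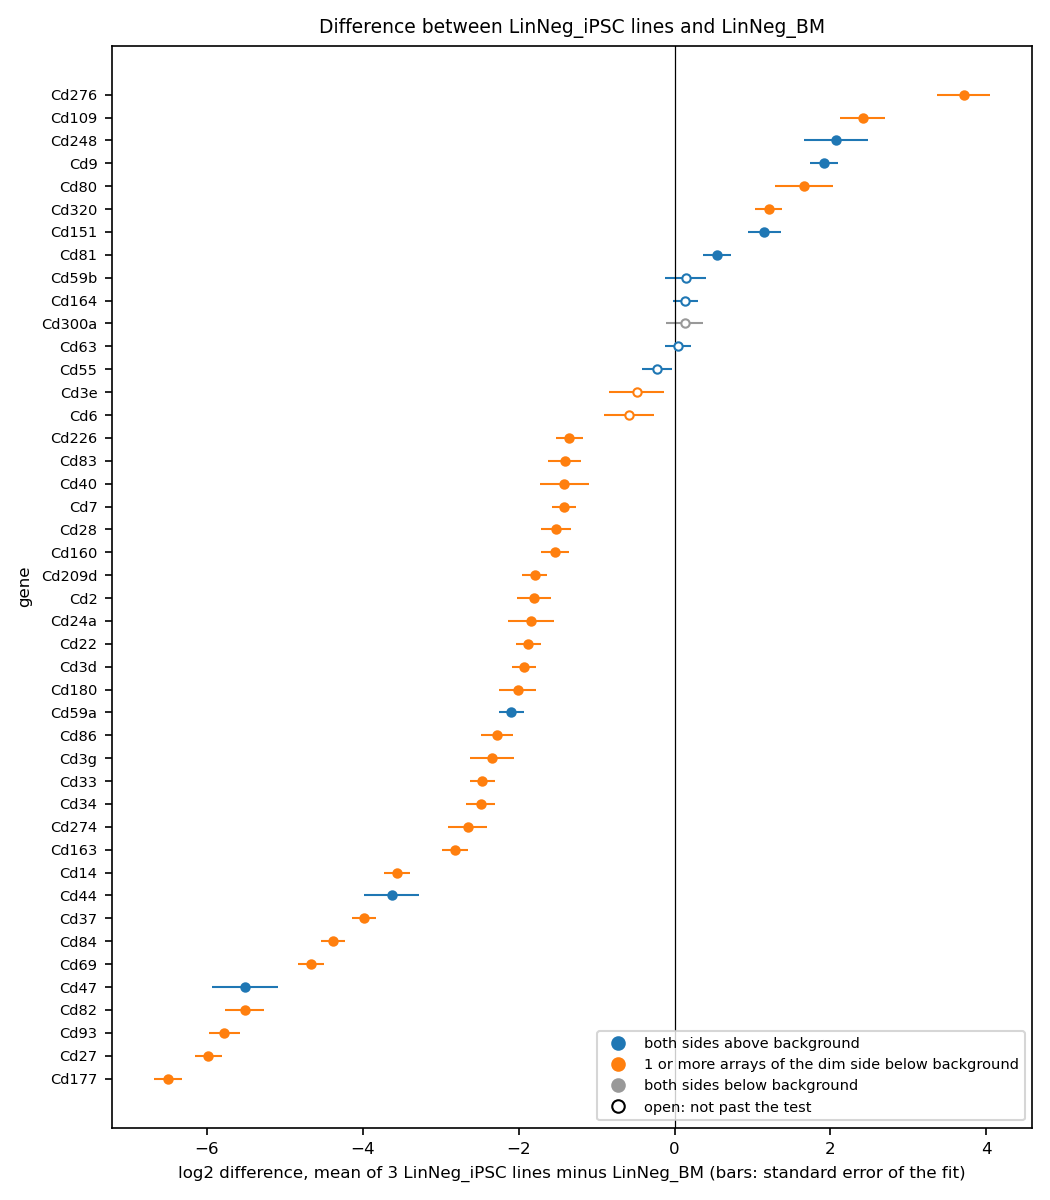
Difference in normalized log2 intensity, mean of the 3 LinNeg_iPSC lines minus LinNeg_BM, for the 44 genes in order of size, with bars for the standard error of the fit. Blue points have both sides above background, orange points have 1 or more arrays of the dim side below it, grey marks both sides below it, and open points did not pass the test. The points run from Cd276 at 3.71 to Cd177 at -6.50.

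Tetraspanins, which cross the membrane several times and gather partner proteins into domains, went both ways: of 6 measured genes 3 rose, 2 fell and Cd63 did not pass. Cd9, a tetraspanin needed on the egg surface for sperm fusion, was at 10.00 in LinNeg_BM, 12.01 in ESC, 11.90, 11.80 and 12.05 in lines 1.1.2, 7 and 9, 12.69 in LinPos_iPSC and 11.51 in MEF_iPSC. Every pluripotent array lay above LinNeg_BM, and the lines were 3.78-fold higher than it (difference 1.92, limma, adjusted p = 0.000735). Cd151, a partner of laminin-binding integrins, was at 8.85 in LinNeg_BM, 10.12 in ESC, 10.23, 9.82 and 9.96 in the lines, 9.75 in LinPos_iPSC and 9.67 in MEF_iPSC. The lines were 2.22-fold higher than LinNeg_BM (limma, adjusted p = 0.00756), a call that median scaling of the arrays removed, with a difference of 0.51.

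Cd81, part of the B cell coreceptor, was at 12.41 in LinNeg_BM, 12.89 in ESC, 13.09, 12.90 and 12.85 in the lines, 13.25 in LinPos_iPSC and 12.31 in MEF_iPSC. MEF_iPSC was lower than LinNeg_BM and the other pluripotent arrays were higher. The 1.45-fold rise passed narrowly (limma, adjusted p = 0.0487) and was lost under 10 of 14 alternative settings. Cd63, a tetraspanin of late endosomes and granules, was at 11.28 in LinNeg_BM, 11.32 in ESC, 11.36, 11.36 and 11.26 in the lines, 11.43 in LinPos_iPSC and 11.70 in MEF_iPSC. Its difference of 0.04 (95% interval -0.37 to 0.46, limma, adjusted p = 0.835) changed sign under cyclic loess and median scaling. The other Cd63 probes, above background on all 7 arrays, had larger differences from LinNeg_BM, at 0.57 and 0.52.

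The other tetraspanins were marrow genes. Cd82, also called Kai1, was at 11.12 in LinNeg_BM, 4.96 in ESC, 5.45, 5.91 and 5.44 in the lines, 5.07 in LinPos_iPSC and 5.72 in MEF_iPSC. Of the pluripotent arrays only line 7 and MEF_iPSC were above background, and the lines were at least 43.3-fold lower than LinNeg_BM (limma, adjusted p = 8.17e-05). Here and below, "at least" means that dim values were raised to the lowest value above background on their array. Cd37, a tetraspanin of B cells and other leukocytes, was at 8.40 in LinNeg_BM, 4.69 in ESC, 4.40, 4.45 and 4.40 in the lines, 4.48 in LinPos_iPSC and 4.93 in MEF_iPSC. It was above background in LinNeg_BM alone and fell at least 7.27-fold (limma, adjusted p = 6.42e-05).

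Of 8 measured sialomucins, adhesion and matrix receptors (10 on the array), 2 rose, 5 fell and Cd164 did not pass. Cd47, the "do not eat me" ligand that macrophage Sirpa recognises, was at 11.64 in LinNeg_BM, 5.50 in ESC, 5.73, 6.75 and 5.90 in the lines, 6.13 in LinPos_iPSC and 5.27 in MEF_iPSC. ESC and MEF_iPSC were not above background and the 4 marrow-derived iPSC arrays were, but some of these values lay near the limit of detection. The lowest value above background was 5.67 in ESC and 5.57 in line 1.1.2. The lines differed from ESC by 0.63 (95% interval -0.45 to 1.71) and from MEF_iPSC by 0.86 (95% interval -0.22 to 1.94). They were 45.6-fold lower than LinNeg_BM (difference -5.51, limma, adjusted p = 0.000376). Cd44, the hyaluronan receptor, was at 9.97 in LinNeg_BM, 5.70 in ESC, 5.99, 6.84 and 6.20 in the lines, 5.79 in LinPos_iPSC and 6.10 in MEF_iPSC. All 7 arrays were above background, and the fall was 12.4-fold (difference -3.63, limma, adjusted p = 0.000804).

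Cd93, a C-type lectin-like receptor of early progenitors, monocytes and endothelium, was at 10.52 in LinNeg_BM, 4.70 in ESC, 4.63, 4.67 and 4.95 in the lines, 4.60 in LinPos_iPSC and 4.46 in MEF_iPSC. Only LinNeg_BM was above background, and the lines were at least 31.6-fold lower (limma, adjusted p = 5.11e-05). Cd34 fell at least 3.36-fold (limma, adjusted p = 0.000329), with the 7 values given above. Cd24a, a mucin-type antigen of immature B and erythroid cells, was at 6.73 in LinNeg_BM and between 4.43 and 5.29 on the pluripotent arrays, at least 2.28-fold lower in the lines (limma, adjusted p = 0.00447).

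The 2 that rose differed in their marrow level. Cd248, endosialin, a stromal and pericyte antigen, was at 5.97 in LinNeg_BM, 7.30 in ESC, 7.83, 8.65 and 7.67 in the lines, 7.64 in LinPos_iPSC and 7.55 in MEF_iPSC. LinNeg_BM was lowest, line 7 was highest, and the rise was 4.22-fold (limma, adjusted p = 0.00893). Cd109, a membrane-anchored protein of the alpha2-macroglobulin family that binds TGF-beta, was at 4.43 in LinNeg_BM, 5.27 in ESC, 6.46, 6.94 and 7.13 in the lines, 5.27 in LinPos_iPSC and 6.05 in MEF_iPSC. It was above background in the 3 lines and MEF_iPSC and not in LinNeg_BM, ESC or LinPos_iPSC, and the lines exceeded LinNeg_BM by at least 2.28-fold (limma, adjusted p = 0.0017). That call was lost with the 6 pluripotent arrays taken as 1 group. Cd164, a sialomucin also called endolyn, was at 11.98 in LinNeg_BM, 12.08 in ESC, 12.16, 12.04 and 12.16 in the lines, 12.02 in LinPos_iPSC and 12.22 in MEF_iPSC. LinNeg_BM was lowest by a narrow margin, the difference of 0.14 (95% interval -0.28 to 0.56) did not pass (limma, adjusted p = 0.501), and its sign turned under cyclic loess and median scaling.

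Line 7 was the highest of the 7 arrays for Cd248 and the highest pluripotent array for Cd44, Cd47 and Cd82. The same line was the only array with all 11 measured fibroblast or feeder markers above background, against 4 in LinNeg_BM, 8 in ESC, 10 in each of lines 1.1.2 and 9, and 9 in LinPos_iPSC and in MEF_iPSC. The summed linear level of that list was 8520 in line 7, 4551 and 5560 in lines 1.1.2 and 9, and 2039 to 4398 on the other arrays. Dcn, a collagen-binding proteoglycan, was at 10.33 in line 7, 6.27 and 6.98 in lines 1.1.2 and 9 and 6.36 in MEF_iPSC, and Lum was above background in line 7 alone. Not all markers of the list went that way. Acta2 was at 9.29 in line 7 against 9.73 and 10.06 in lines 1.1.2 and 9, and Lox at 9.18 against 9.30 and 9.69. Tgfbi was at 7.34 in line 7, 7.39 in line 1.1.2 and 6.90 in line 9. The part of fibroblast or feeder cells in the level of Cd248, Cd44, Cd47 and Cd82 was not tested. Over the 15 CD-numbered genes above background in all 3 lines, line 1.1.2 was highest for 7, line 7 for 4 and line 9 for 4. Each of the 3 lines was lowest for 5 of them. The same counts over all genes were not made.

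The complement regulators protect cells from the body's own complement. Of 4 on the array 3 were above background on all 7 arrays, and Cd46 was above background on none. Cd59a, a GPI-anchored inhibitor of the membrane attack complex, was at 9.35 in LinNeg_BM, 7.04 in ESC, 7.30, 7.22 and 7.26 in the lines, 6.88 in LinPos_iPSC and 7.26 in MEF_iPSC. The pluripotent arrays lay together below LinNeg_BM, and the fall was 4.27-fold (difference -2.09, limma, adjusted p = 0.000359). Its neighbour and close copy Cd59b was at 7.09 in LinNeg_BM, 7.08 in ESC, 7.01, 7.11 and 7.58 in the lines, 6.46 in LinPos_iPSC and 7.13 in MEF_iPSC. LinNeg_BM lay among the pluripotent arrays, and the difference of 0.14 did not pass (95% interval -0.54 to 0.83, limma, adjusted p = 0.674) and turned negative under median scaling, without line 9 and with the 6 pluripotent arrays as 1 group. Whether either probe also binds the other copy was not tested. Cd55, decay-accelerating factor, was at 7.22 in LinNeg_BM, 6.97 in ESC, 6.92, 6.89 and 7.17 in the lines, 6.88 in LinPos_iPSC and 5.76 in MEF_iPSC. MEF_iPSC was low and the other arrays were close, with a difference from LinNeg_BM of -0.23 that did not pass (95% interval -0.72 to 0.26, limma, adjusted p = 0.345), though it passed under median scaling at -0.67.

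The B7 family and dendritic cell activation genes split into 2 higher and 3 lower of 5. Cd276, also called B7-H3, a B7-family protein found widely outside the immune system, was at 4.59 in LinNeg_BM, 8.05 in ESC, 7.90, 8.74 and 8.27 in the lines, 7.07 in LinPos_iPSC and 8.79 in MEF_iPSC. All 6 pluripotent arrays were far above LinNeg_BM, which was at background, and the lines were at least 6.28-fold higher (limma, adjusted p = 0.000672). Cd80, or B7-1, the ligand of Cd28 and Ctla4 on antigen-presenting cells, was at 5.08 in LinNeg_BM, 6.77 in ESC, 7.26, 6.55 and 6.39 in the lines, 6.18 in LinPos_iPSC and 5.87 in MEF_iPSC. LinNeg_BM was not above background and the lines were at least 2.12-fold higher (limma, adjusted p = 0.0134).

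Cd86, or B7-2, the other ligand of Cd28, showed the opposite order. It was at 6.82 in LinNeg_BM and between 4.39 and 4.75 on the pluripotent arrays, none above background, and was at least 2.42-fold lower in the lines (limma, adjusted p = 0.000633). Cd274, or PD-L1, the ligand of Pdcd1, was at 7.65 in LinNeg_BM, 5.44 in ESC, 5.02, 5.26 and 4.71 in the lines, 4.54 in LinPos_iPSC and 5.06 in MEF_iPSC. Only LinNeg_BM was above background, and the fall was at least 4.32-fold (limma, adjusted p = 0.000736). Cd83, an activation antigen of dendritic cells, was at 6.14 in LinNeg_BM and fell at least 1.52-fold (limma, adjusted p = 0.00354).

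The costimulatory receptors were marrow genes. Cd27 fell at least 33.1-fold (limma, adjusted p = 3.81e-05), and its ligand gene Cd70 was above background on no array. Cd40, the receptor for the T cell ligand Cd40lg, was at 6.97 in LinNeg_BM and 5.95 in line 1.1.2, and between 4.91 and 5.54 on the other arrays, which were not above background. The lines were at least 2.46-fold lower (limma, adjusted p = 0.0133). Cd84, a SLAM-family receptor that binds itself on the next cell, was at 9.00 in LinNeg_BM, 4.59 in ESC, 4.67, 4.61 and 4.58 in the lines, 4.85 in LinPos_iPSC and 5.13 in MEF_iPSC. LinNeg_BM alone was above background and the fall was at least 11-fold (limma, adjusted p = 5.36e-05).

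Myeloid receptors gave the widest difference of the 44. Cd177, a GPI-anchored antigen of neutrophils, was at 11.09 in LinNeg_BM, 4.41 in ESC, 4.54, 4.73 and 4.50 in the lines, 4.35 in LinPos_iPSC and 4.74 in MEF_iPSC. No pluripotent array was above background, and the lines were at least 46.9-fold lower (limma, adjusted p = 3.56e-05). Cd14, the lipopolysaccharide coreceptor of monocytes, was at 8.15 in LinNeg_BM, 4.56 in ESC, 4.66, 4.52 and 4.60 in the lines, 4.94 in LinPos_iPSC and 4.98 in MEF_iPSC. Cd163, the haemoglobin scavenger receptor of macrophages, was at 7.31 in LinNeg_BM, 4.46 in ESC, 4.42, 4.58 and 4.46 in the lines, 4.47 in LinPos_iPSC and 5.01 in MEF_iPSC. Both were above background in LinNeg_BM alone, and fell at least 6.09-fold and 3.41-fold (limma, adjusted p = 8.44e-05 and 0.000166). Cd33 fell at least 2.70-fold (limma, adjusted p = 0.000229), and Cd209d, one of a cluster of similar C-type lectin genes, at least 1.62-fold (limma, adjusted p = 0.000627).

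Cd300a, an inhibitory receptor of myeloid cells, was the exception among the 6 myeloid genes. It was at 4.62 in LinNeg_BM, 4.70 in ESC, 4.96, 4.81 and 4.48 in the lines, 5.59 in LinPos_iPSC and 4.54 in MEF_iPSC. LinPos_iPSC alone was above background, barely, and with LinNeg_BM and the lines both dim no fold is given. Cd69, an early activation antigen of lymphocytes, was at 9.15 in LinNeg_BM, 4.44 in ESC, 4.48, 4.55 and 4.41 in the lines, 4.49 in LinPos_iPSC and 4.53 in MEF_iPSC. It was above background in LinNeg_BM alone and fell at least 12.1-fold (limma, adjusted p = 5.13e-05). Cd320, the receptor that takes up vitamin B12 bound to transcobalamin, was at 5.13 in LinNeg_BM, 5.84 in ESC, 6.45, 6.33 and 6.23 in the lines, 6.02 in LinPos_iPSC and 5.90 in MEF_iPSC. The 6 pluripotent arrays were above background and LinNeg_BM was not, and the lines were at least 1.61-fold higher (limma, adjusted p = 0.00315).

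Lymphocyte antigens were above background in lineage-negative marrow, and most of them fell. Of 14 T cell and natural killer genes on the array 9 were measured, and of these 7 fell and 2 did not pass. Those 7 were above background in LinNeg_BM alone, so their fall was all but fixed. Of all genes with that pattern, 95.5% passed as lower. The 7 were Cd3g and Cd3d, chains of the T cell receptor complex, Cd2 and Cd7, adhesion and costimulatory antigens of T and natural killer cells, Cd28, the receptor of Cd80 and Cd86, and Cd160 and Cd226, receptors of natural killer and T cells. Their LinNeg_BM values ran from 5.92 for Cd226 to 7.10 for Cd3g, none was above background on a pluripotent array, and the falls ranged from at least 1.30-fold for Cd226 to at least 2.95-fold for Cd3g (limma, adjusted p = 0.00209 and 0.00157). The Cd226 call was lost without the filter on dim probes. All 7 measured markers of the T and natural killer lineage, Cd3d, Cd3e and Cd3g among them, were above background in LinNeg_BM, with a summed linear level of 4107, against 1 or 2 of them and sums of 222 to 310 on the pluripotent arrays. In LinNeg_BM Nkg7, at 11.64, and Klrd1, at 8.96, were the highest of them, and the Cd3 chains lay between 5.88 and 7.10. Both Nkg7 and Klrd1, like Cd3d and Cd3g, were measured through LinNeg_BM alone. Zap70 was higher in ESC, at 6.70, than in LinNeg_BM, at 6.50. Cd4 and Cd8a of the same list were above background on no array. How many T or natural killer cells the depletion had left was not tested. Both measured B cell genes fell: Cd22, an inhibitory lectin of B cells, from 6.60 by at least 2.08-fold, and Cd180, a Toll-like receptor homologue, from 6.62 by at least 2.10-fold (limma, adjusted p = 0.000532 and 0.00142). Cd22 and Cd180 were above background in LinNeg_BM alone, so their fall was all but fixed too.

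The 2 T cell genes that did not pass were unevenly detected outside marrow. Cd3e, the signalling chain epsilon of the T cell receptor complex, was at 5.88 in LinNeg_BM, 6.02 in ESC, 5.89, 5.18 and 5.11 in the lines, 5.18 in LinPos_iPSC and 5.38 in MEF_iPSC. ESC and line 1.1.2 were as high as LinNeg_BM, and the other pluripotent arrays were not above background. Cd6, a scavenger-receptor-type antigen of T cells that binds Alcam, was at 5.95 in LinNeg_BM, 6.23 in ESC, 5.77, 5.35 and 4.98 in the lines, 4.74 in LinPos_iPSC and 6.50 in MEF_iPSC. MEF_iPSC was highest and LinPos_iPSC lowest, and 2 further Cd6 probes also had MEF_iPSC above LinPos_iPSC, at 6.12 against 4.54 and 6.79 against 4.61. Against LinNeg_BM the differences were -0.49 for Cd3e (95% interval -1.38 to 0.40, limma, adjusted p = 0.278) and -0.59 for Cd6 (95% interval -1.41 to 0.24, limma, adjusted p = 0.176). Both passed without line 1.1.2, at -0.74 and -0.79, and Cd6 also with the mean of its probes, at -0.80, and through another of its probes tested on its own, at -1.14.

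The next comparisons set the same 3 lines against ESC, MEF_iPSC and LinPos_iPSC in turn, and ask whether iPSCs of primitive marrow carried surface genes that other pluripotent cells lacked. They share the LinNeg_iPSC lines, so their results are not independent. No CD-numbered gene passed in any of them (limma, adjusted p under 0.05). At an unadjusted p under 0.05 there were 5 against ESC, 7 against MEF_iPSC and 6 against LinPos_iPSC, compared with 956, 1201 and 1494 of all 9263 genes. The share of all genes that passed was 0% against ESC, 0.0756% against MEF_iPSC and 0.313% against LinPos_iPSC. A miss in this design, with 1 array on one side, does not show that the cells were alike.

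**Figure D4:**
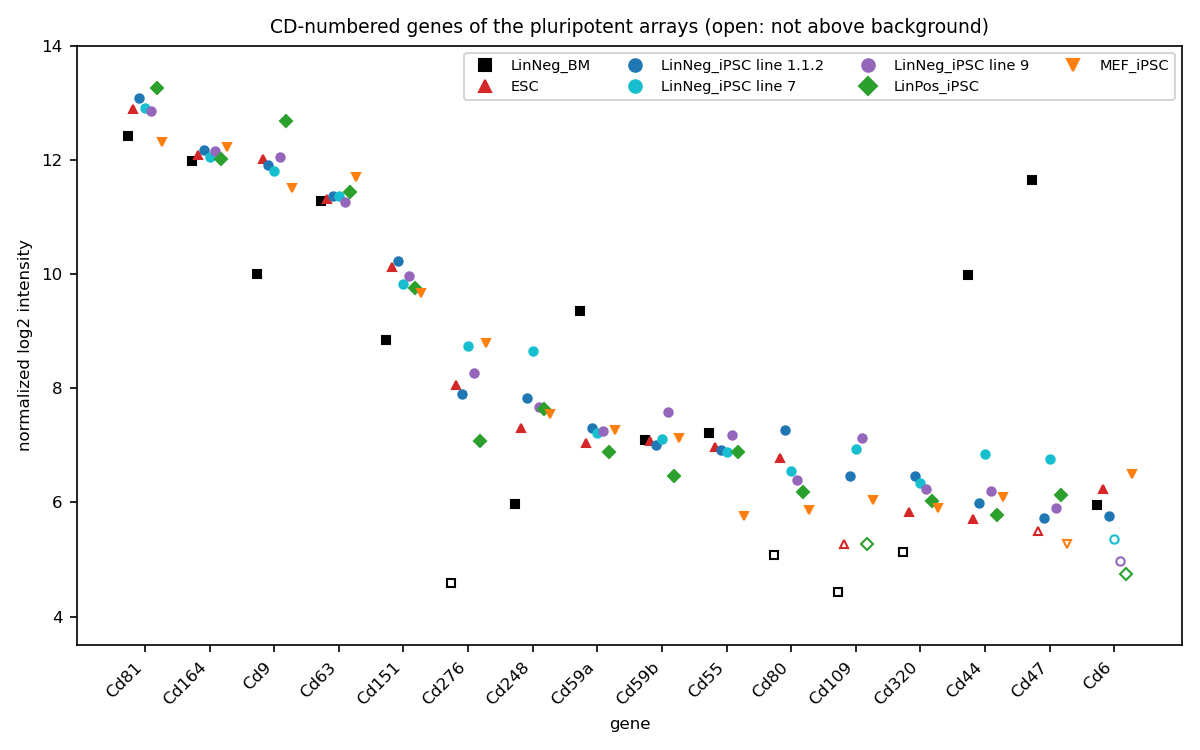
Normalized log2 intensity (vertical axis) of 16 CD-numbered genes detected on pluripotent arrays, with 1 symbol per array and open symbols for values not above background. Black squares (LinNeg_BM) lie away from the coloured symbols for Cd9, Cd276, Cd47 and Cd44. They lie among them for Cd63 and Cd59b and just below them for Cd164.

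Over the 13 genes above background in the 3 lines and in ESC, the differences were all under 1 on the log2 scale. Their median absolute difference was 0.11. Genes are named below by the gap between the lone array and the nearest of the 3 lines, which is not the order of the mean differences. Cd109 had the widest such gap from ESC, at 1.19: the lines, at 6.84 ± 0.35 (SD, n = 3), were at least 2.26-fold above ESC (difference 1.57, 95% interval 0.82 to 2.32), which did not pass (limma, adjusted p = 0.335). A second Cd109 probe had the lines above ESC by 1.13 on the same scale. By that gap Cd82 and Cd6 followed, with mean differences of 0.64 (limma, adjusted p = 0.484) and -0.87 (limma, adjusted p = 0.48) and part of the values below background. Cd248 and Cd44, at mean differences of 0.75 and 0.64, had narrower gaps, with SDs between the lines of 0.53 and 0.44.

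Against MEF_iPSC the gaps to the nearest line were widest in Cd55, Cd6 and Cd81, with values of 1.13, -0.73 and 0.54. Cd80, Cd47 and Cd109 had larger mean differences than Cd81, at 0.86, 0.86 and 0.79, and did not pass either. The lines held Cd55 at 6.99 ± 0.15 (SD, n = 3) and MEF_iPSC at 5.76, a difference of 1.24 (95% interval 0.75 to 1.72) that did not pass (limma, adjusted p = 0.155). The difference was -1.14 for Cd6, with 2 of the 3 lines below background (limma, adjusted p = 0.281), and 0.64 for Cd81 (limma, adjusted p = 0.276). Over the 14 genes above background in the 3 lines and in MEF_iPSC, the median absolute difference was 0.42.

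Against LinPos_iPSC the gaps to the nearest line were widest in Cd109, Cd276 and Cd9, with values of 1.19, 0.83 and -0.63. Cd300a had nearly the same gap as Cd9 and a larger mean difference, at -0.84, with the 3 lines below background. The lines held Cd109 at least 2.46-fold above LinPos_iPSC (difference 1.57, 95% interval 0.82 to 2.32, limma, adjusted p = 0.116). Cd276 was 2.36-fold higher in the lines (difference 1.24, 95% interval 0.37 to 2.11, limma, adjusted p = 0.201). Cd9 was 1.70-fold lower in the lines (difference -0.77, 95% interval -1.23 to -0.31), short of the threshold (limma, adjusted p = 0.171) but past it when the variance was moderated with an intensity trend (adjusted p = 0.0311). Over the 14 genes above background in the 3 lines and in LinPos_iPSC, the median absolute difference was 0.35.

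**Figure D5:**
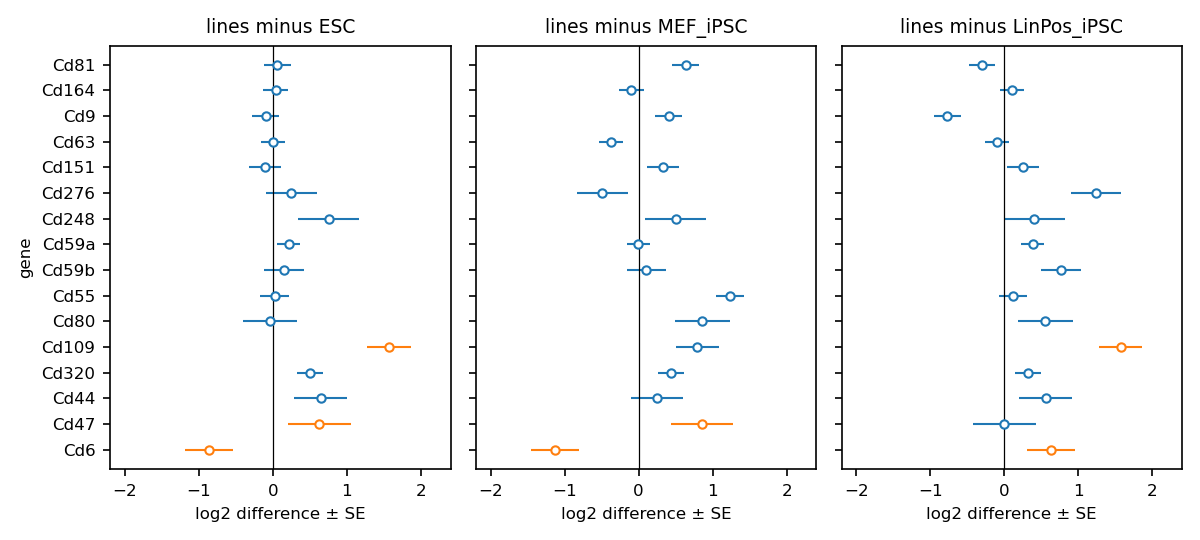
Difference in normalized log2 intensity, mean of the 3 LinNeg_iPSC lines minus ESC, MEF_iPSC or LinPos_iPSC, for 16 CD-numbered genes, with bars for the standard error of the fit. Orange marks genes with 1 or more arrays of the dim side below background. All points are open because none passed the test, and Cd109 lies farthest to the right against ESC and LinPos_iPSC.

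The genes above background on all 6 pluripotent arrays numbered 13 and differed in how far those arrays spread. Cd164 spanned 0.20 on the log2 scale, Cd59a 0.42 and Cd63 0.45, whereas Cd276 spanned 1.73, Cd55 1.41 and Cd80 1.39. The lowest array was MEF_iPSC for 5 of the 13, LinPos_iPSC for 4, ESC for 3 and line 9 for 1, a count not made over all genes. Of the 9 genes with more than 1 probe above background, all 9 had the same sign against LinNeg_BM in every such probe. For Cd27, Cd33, Cd86 and Cd177 each probe was above background in LinNeg_BM alone, which all but fixed the sign. The other Cd44 probe was below background in LinNeg_BM and in the 3 lines. Its difference was -0.09, against -3.63 for the probe used, so it does not bear on the fall.

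Surface antigens that hold a cluster-of-differentiation number but are listed under other symbols were counted for comparison. Of 29 blood-cell antigens listed, 17 were tested against LinNeg_BM, of which 15 fell and 1, Anpep, an aminopeptidase, rose at least 1.69-fold (limma, adjusted p = 0.000713), with a median difference of -2.94. The 16 past the test were 94.1% of the 17, beside 59.5% of all genes. Selplg, the P-selectin ligand, fell at least 62.2-fold, Itga2b, the platelet integrin chain, at least 29.5-fold, Csf3r, the receptor for granulocyte colony-stimulating factor, at least 16.8-fold, and Ly9, a SLAM-family receptor, at least 11.7-fold. Selplg, Csf3r, Ly9 and others of the list, such as Il7r and Slamf1, were above background in LinNeg_BM alone. Measured through marrow only, these could hardly do other than fall. Of 25 antigens of broad or epithelial expression, 19 were tested, and 7 rose and 3 fell, with a median of 0.36. Of these 19, 52.6% passed, beside 59.5% of all genes. Mcam, a cell adhesion molecule, rose at least 19.2-fold, the adhesion molecule Nectin2 16.6-fold, E-cadherin (Cdh1) 15.8-fold and the tight-junction protein F11r at least 3.13-fold. The highest p among these genes with a stated fold, Anpep aside, was that of F11r (limma, adjusted p = 0.000297).

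Genes whose products pair with CD-numbered proteins or are related to them were fewer. Of 15 listed, 7 were tested against LinNeg_BM, with 2 higher and 3 lower, which is 71.4% past the test beside 59.5% of all genes. Tyrobp, an adaptor of activating myeloid receptors, fell at least 20.9-fold and Lcp2, an adaptor of T cell and platelet signalling, at least 4.09-fold (limma, adjusted p = 5.32e-05 and 0.000132). Traf2 was the other that fell, by at least 1.08-fold (limma, adjusted p = 0.0141). Thbs1, thrombospondin, a ligand of Cd47, rose at least 4.32-fold and Podxl, a sialomucin related to Cd34, 1.79-fold (limma, adjusted p = 0.00374 and 0.0401).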

How the data were processed

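Total RNA (500 ng) from each of the 7 samples was labelled with a 12 h in vitro transcription step, per the labels' protocols. The deposited table gave, for 25697 probes and 7 arrays, bead-summary intensities on a linear scale, with no value near 0 and different medians per array, so without background subtraction or scaling. It also gave a deposited detection p-value per probe and array. A second table held the authors' processed log2 values and served only as an alternative. The submitters' processing notes name BeadStudio 3.2, lumi and RMA, without saying which step each did.

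Intensities were background-corrected, quantile-normalized and taken to log2 with limma 3.58.1 (neqc, offset 16, R 4.3.3). Symbols came from the platform annotation, in which 23978 probes had 1 symbol and 1719 were not listed. Of a gene's probes above background (detection p-value under 0.01 on at least 1 array), the one with the highest mean stood for it. Of the 7 arrays, 40.6% to 42.4% of probes were above background, and the number of arrays limits precision. One fit (lmFit and eBayes, 5 groups, 2 residual and 3.16 prior degrees of freedom) gave 4 comparisons, with Benjamini-Hochberg adjustment over 9263 genes and a threshold of 0.05. Values below background gave fold bounds: a dim array's value was raised to the lowest value above background on that array where that was higher. The fit was tested on simulated data.

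The members, the role and partner lists and the naming rule were chosen with earlier results of these data known. The rule named every gene above background on pluripotent arrays but not in LinNeg_BM. It gave all 7 values for Cd34, Cd27 and Cd33, for genes above background on all arrays, for the 3 widest gaps between the lone array and the nearest line in each comparison without calls, and for the 15 largest differences from LinNeg_BM. It also allowed up to 4 genes per related list, and Podxl is given beside them. Cd3e, Cd80, Cd109, Cd300a and Cd320 are given in the same way. Alternatives changed the background correction, normalization, filter, probe rule, moderation, grouping and the lines included. The 5 groups rest on the cell type label. No 2 groups share replicate numbers that could pair samples.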

Additional observations from a re-analysis of the deposited data

How the results depend on the processing

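The 44 CD-numbered genes were each compared with LinNeg_BM under every alternative setting that could be computed. Direction and side of the threshold were kept in 565 such values, the call was lost in 13, gained in 5, and the sign turned in 7. Of the losses 10 concerned Cd81, and the others Cd109, Cd151 and Cd226. The sign turned for Cd164 (-0.056 with cyclic loess, -0.27 with median scaling), Cd63 (-0.20 and -0.47) and Cd59b (-0.28 with median scaling, -0.030 with the 6 pluripotent arrays as 1 group and -0.032 to 0.25 with a line left out, the lowest without line 9). None of these 3 passed in the main setting. Median scaling moved the median of all genes against LinNeg_BM to -0.39 and split its calls into 1989 higher and 3998 lower, so levels that differ by less than that shift have no settled direction. The count of CD-numbered genes against LinNeg_BM was 12 with genes above background on 3 arrays, where 18 were left to test, and that filter split the calls over all genes into 2729 higher and 1905 lower. Against LinPos_iPSC the CD-numbered count was 1 (Cd9) with a variance trend and robust moderation. Over all genes, the 29 calls against LinPos_iPSC became 51 with the filter of 3 arrays, 11 with the authors' values, 116 with median scaling, 19 with no filter, 218 with normexp, 202 with the variance trend, and 0 to 0 with a line left out. The 7 against MEF_iPSC became 3 with the authors' values, 22 with median scaling, 91 with normexp, 69 with the variance trend, and 0 to 2 with a line left out. The cause was not tested. No paired analysis was possible because each group other than LinNeg_iPSC had 1 array. A signal near background limits the genes that are dim in the pluripotent arrays: their folds are bounds only.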

Other observations

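Genes whose products pair on the cell surface were compared by the arrays on which they were detected. Cd28 was above background in LinNeg_BM alone, as was its ligand gene Cd86, while its other ligand gene Cd80 was above background on the 6 pluripotent arrays and not in LinNeg_BM. Cd47 was above background in LinNeg_BM, in the 3 LinNeg_iPSC lines and in LinPos_iPSC, and Sirpa, its receptor on macrophages, in line 9 alone (5.79 on the normalized log2 scale). Igsf8, a partner of Cd9 and Cd81, was above background in ESC and in lines 7 and 9 and lay between 4.87 and 5.72 on all 7 arrays, whereas Cd9 and Cd81 were above background on every array.

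Ptprc, the pan-leukocyte antigen CD45, was above background in LinNeg_BM alone, at 6.05, and its difference in the lines was -1.37 (limma, adjusted p = 0.00413), at least 1.42-fold lower.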
